A study of Mus musculus with 2 samples.

Results

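The genes described here are 9 mouse genes grouped as activity-induced synaptic effectors: Arc, Homer1, Nptx1, Nptx2, Dusp1, Gadd45b, Rgs2, Rheb and Ptgs2. Their products act at the synapse or in the signalling behind it, and their induction by firing was not tested here. The genes were taken by name from the GENCODE M21 annotation, 9 of its 21938 protein-coding genes. Their promoters (within 500 bp of any annotated transcription start site, TSS) and the open regions within 100 kb were read in a DNase-seq study of left cerebral cortex tissue. The mice were males aged 2 months of strain B6CASTF1/J, in which each animal carries a C57BL/6J and a CAST/EiJ genome. The 2 samples, labelled biological replicates 1 and 2, form a single group with no stimulated, treated or other comparison group, so no test between conditions was possible. Both carry the same donor record in the labels but different animal numbers, and were treated as separate animals. If they came from 1 animal, each SD given for n = 2 measures technical spread only. DNase I cuts DNA where nucleosomes leave it open, and the cut ends are sequenced. A peak is a stretch with many cuts, its height is the authors' signal, and a footprint is a short protected stretch inside open DNA.

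Neuronal firing raises calcium in the cell, and kinases then activate transcription factors that are already bound or waiting, such as CREB at the cAMP response element (CRE), SRF at the CArG box and MEF2. The first genes to respond include transcription factors and also effectors, some of which change the synapse directly. Arc helps remove AMPA-type glutamate receptors from the membrane, Homer1 binds metabotropic glutamate receptors, and the pentraxins Nptx1 and Nptx2 gather AMPA receptors from outside the cell. Dusp1 and Rgs2 switch signalling off, Gadd45b is linked to DNA demethylation and stress signalling, Rheb activates the growth kinase complex mTORC1, and Ptgs2 (cyclooxygenase-2) makes prostaglandin precursors.

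Promoters of genes that mark neurons and glia were checked first. A promoter peak was present in both replicates for 3 of 4 pan-neuronal markers, 2 of 4 excitatory, 0 of 3 inhibitory, 3 of 4 astrocyte, 2 of 4 oligodendrocyte, 0 of 4 microglial and 0 of 4 endothelial markers. The 3 inhibitory markers (Gad1, Gad2, Slc32a1) and the excitatory marker Slc17a7 had one in replicate 1 alone. In bulk tissue, an open site in fewer cells and less cutting per cell cannot be told apart. The replicates had 63928 and 76440 peaks after joining, and 44745 regions were open in both. No read counts were used, so depth is unknown and single heights have no counting interval.

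Of the 9 effector promoters, 8 had a peak in both replicates; over all protein-coding genes the share was 56.2%. In the authors' longer peak lists all 9 had one, and the share of all genes was 61.0%. The exception was Nptx1, with a peak in replicate 1 alone, as 5.37% of all genes had. Promoters of 6 members lay above the 75th percentile of promoter heights in both replicates, which was the case for 21.5% of the genes with a peak in both. Those 6 were Rheb, Gadd45b, Homer1, Dusp1, Arc and Rgs2. The pentraxins and Ptgs2 lay below the median promoter, which was 3.38 in replicate 1 (13503 genes) and 2.08 in replicate 2 (12529 genes).

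**Figure D1:**
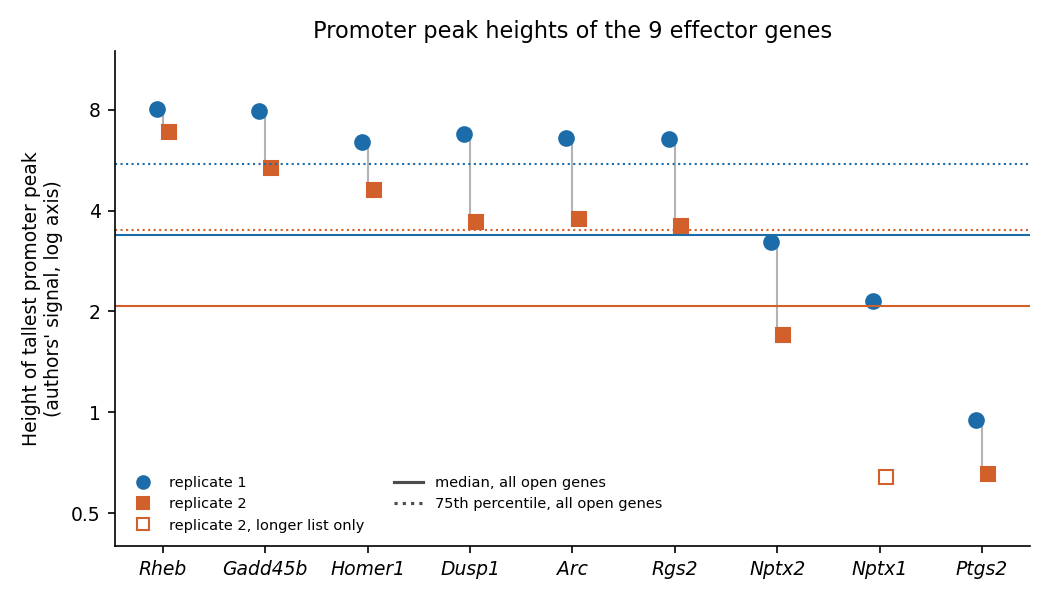
Height of the tallest promoter peak (vertical log axis, the authors' signal) of each effector gene (horizontal axis) in replicate 1 (circles) and replicate 2 (squares). Solid and dotted lines are the median and the 75th percentile over all genes with a promoter peak, in the colour of the replicate. The first 6 genes lie above their replicate's dotted line, and the open square for Nptx1 is a peak of the longer list alone.

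The order of the members was nearly the same in both libraries. Rheb was tallest and Gadd45b next in each, and Nptx2 and Ptgs2 were last among the 8 measured in both. Of the 28 pairs of these 8 genes, 4 were in opposite order in the replicates: Arc with Homer1, Arc with Dusp1, Homer1 with Dusp1, and Homer1 with Rgs2. The 4 neighbours Homer1, Dusp1, Arc and Rgs2 therefore changed order, though Dusp1 and Arc were above Rgs2 in both replicates. Heights of the 4 lay between 6.42 and 6.78 in replicate 1 and between 3.61 and 4.60 in replicate 2.

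Arc is the effector whose activity control is best mapped, and it lies on chromosome 15 (chr15:74669083-74672570, minus strand). Its promoter peak reached 6.58 in replicate 1 and 3.77 in replicate 2 (mean 5.17 ± 1.98, SD, n = 2). That was 1.95 and 1.81 times the median promoter, so the position among promoters was alike although the heights were not. A second open region, chr15:74673401-74673640, began 0.831 kb upstream and was the only one between 500 and 2000 bp from its start, with heights of 1.36 and 1.91. The nearest distal region was chr15:74679161-74679400, intergenic, 6.59 kb upstream, with heights of 2.39 and 1.99. About this far upstream lies the known synaptic activity-responsive element of Arc, a compact enhancer bound by CREB, MEF2 and SRF. Its sequence is shown because it was the only distal region of the gene with the Arc start as its nearest protein-coding start.

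Here and below sequences are from the C57BL/6J reference (GRCm38), read 5′ to 3′ on the strand of the gene, and capitals mark bases under a footprint in both replicates.
Arc upstream region: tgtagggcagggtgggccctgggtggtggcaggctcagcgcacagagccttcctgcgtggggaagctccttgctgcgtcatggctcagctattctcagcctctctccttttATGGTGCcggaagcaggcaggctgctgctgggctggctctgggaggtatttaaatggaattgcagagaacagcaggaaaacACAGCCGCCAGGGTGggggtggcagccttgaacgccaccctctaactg

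The region held 6 footprints in replicate 1 and 3 in replicate 2, and 22 of its 240 bases were footprinted in both. The 7 capitals in the middle cover the end of a CArG box (CCTTTTATGG on the Arc strand, chr15:74679286-74679295), which begins 6725 bases before the start. Over the 23895 distal regions open in both replicates, 1.23% of central windows of 240 bp held a CArG box, and 15.3% of those boxes (45 of 295) were touched by footprints in both. The bases TGACG, the core of a CRE, occur on the other strand 6755 bases upstream and were under no footprint. A CArG box together with a CRE or its core was found in 36 of the windows (0.151%). Distal regions of a gene were ranked by the geometric mean of their 2 heights, here and below. The tallest within 100 kb of Arc was chr15:74594061-74594300, 78.3 kb downstream and nearest to Adgrb1, with 2.29 in replicate 1, below the upstream region, and 2.67 in replicate 2, above it. This downstream region also held a CArG box together with a CRE core. Its CArG box (chr15:74594190-74594199) was under no footprint, and a MEF2 site in it was touched in replicate 1 alone. Its CRE core at chr15:74594240-74594244 was footprinted in both.

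Homer1 (chr13:93299635-93405129, plus strand) has 10 annotated starts, and its tallest promoter peak spanned the most upstream protein-coding one (chr13:93303757). The heights were 6.42 and 4.60 (mean 5.51 ± 1.29, SD, n = 2), or 1.90 and 2.21 times the median promoter. A smaller peak stood at the start at chr13:93304495 (1.42 and 0.628), and the starts from chr13:93305184 onwards had none within 500 bp. The promoter is shown because 3 copies of the CRE core TGACG lie shortly before the start.
Homer1 promoter: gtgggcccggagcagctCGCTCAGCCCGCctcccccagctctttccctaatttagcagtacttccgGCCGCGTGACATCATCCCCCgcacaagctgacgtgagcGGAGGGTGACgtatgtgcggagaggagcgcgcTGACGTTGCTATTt

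The cores began 56, 40 and 14 bases before the start. The last was wholly under a footprint in both replicates, the middle one wholly in replicate 2 and in part in replicate 1, and the first under none. Homer1 had 1 shared distal region in 100 kb, chr13:93243261-93243440, with heights of 1.14 and 0.763. It lay 56.2 kb upstream of the first annotated start (chr13:93299635), which had no peak within 500 bp in the shorter lists. Replicate 2 alone had 5 further distal peaks and replicate 1 alone had 0.

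The pentraxin genes had lower promoters. Nptx2 (chr5:144545902-144557478, plus strand), the activity-induced pentraxin also called Narp, reached 3.23 and 1.70 (mean 2.46 ± 1.08, SD, n = 2). Those were 0.954 and 0.818 times the median promoter. Nptx1 (chr11:119538719-119547753, minus strand) reached 2.15 in replicate 1 and had no peak in the shorter list of replicate 2. In replicate 2 the longer list gave 0.641 there, and 175 of the bases within 500 bp of the start had a false discovery rate (FDR) under 0.05, with a lowest FDR of 0.00125. In replicate 1, 531 bases had an FDR under 0.05. The Nptx1 promoter was thus weakly open in replicate 2, and whether it counts as open there depends on the list.

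Both pentraxin promoters held a CRE core touched by footprints in both replicates, 120 bases before the start in Nptx2 and 65 in Nptx1. In Nptx2 the footprints of both replicates ended at the first base of the core (chr5:144545782). In Nptx1 the footprint of replicate 2 lay where the shorter list had no peak. The surroundings of the pentraxin genes differed. All 5 shared distal regions of Nptx2 had its start as the nearest protein-coding one, and the tallest was chr5:144543081-144543380, 2.52 kb upstream, with 1.36 in replicate 1 and 1.76 in replicate 2. Of the 5 around Nptx1, 1 did. That region, chr11:119565822-119565980, 18.1 kb upstream, had heights of 0.686 and 0.716 and a CRE core wholly under a footprint in both replicates. The tallest near Nptx1 was chr11:119524561-119524780, 23.0 kb downstream and nearest to Endov, with 2.26 and 1.08. In replicate 2 alone it was lower than the one at chr11:119507887-119508090 (1.30) and the one at chr11:119515948-119516160 (1.19).

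Dusp1, a phosphatase that inactivates MAP kinases, lies on chromosome 17 (chr17:26505590-26562128, minus strand). Its main promoter peak, chr17:26508521-26508800, ended 2 bp from the start at chr17:26508519 and had the same borders in both replicates, with heights of 6.78 and 3.69 (mean 5.24 ± 2.18, SD, n = 2). The sequence is shown because it held the only full CRE, TGACGTCA, in any of the member promoters.
Dusp1 promoter: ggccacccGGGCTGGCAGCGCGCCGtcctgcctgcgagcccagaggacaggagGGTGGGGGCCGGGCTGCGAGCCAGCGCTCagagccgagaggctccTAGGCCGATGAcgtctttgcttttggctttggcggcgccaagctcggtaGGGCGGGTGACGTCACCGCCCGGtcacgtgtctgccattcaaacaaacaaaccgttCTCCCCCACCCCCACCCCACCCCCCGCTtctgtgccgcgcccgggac

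This CRE (chr17:26508608-26508615), 96 bases before the start, was wholly under a footprint in both replicates, and 108 of the 250 printed bases were footprinted in both. A further CRE core, 144 bases before the start, was partly covered in both. TGACGTCA was present in 1.79% of the 32851 RefSeq promoters of 300 bp, and 77.5% of the 618 copies in promoter peaks were touched by footprints in both. A smaller promoter region, chr17:26507989-26508320, lay on the other side of the main start with heights of 2.245 and 1.13. It held an NPAS4 core (TCGTG) touched by footprints in both. A further Dusp1 promoter peak, chr17:26561361-26561580, had heights of 4.37 and 1.74. It spans the start of a noncoding Dusp1 transcript far upstream (chr17:26561499) and also a start of Ergic1, so the peak cannot be assigned to either gene. Distal regions were measured from the nearest annotated start, which for the upstream ones is that at chr17:26562128. That start had no peak within 500 bp in the shorter lists, and the upstream regions lie farther from the main start. Part of the count of 6 distal regions within 100 kb rests on it. The tallest of the 6 was chr17:26660301-26660500, 98.2 kb upstream and nearest to Atp6v0e, with 3.10 and 1.84. Of the 2 with Dusp1 as the nearest protein-coding gene the taller was chr17:26466761-26466940, 40.8 kb downstream, with 1.59 and 0.81. The other, chr17:26576201-26576420, 14.1 kb upstream, had 0.786 and 1.34, so their order turned between the replicates.

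Rgs2 speeds the return of G proteins to their inactive state. Its promoter (chr1:144004081-144004360, the same borders in both replicates, gene chr1:143999338-144004161 on the minus strand) had heights of 6.56 and 3.61 (mean 5.08 ± 2.09, SD, n = 2). It is shown because the stretch footprinted in both lies immediately before the start.
Rgs2 promoter: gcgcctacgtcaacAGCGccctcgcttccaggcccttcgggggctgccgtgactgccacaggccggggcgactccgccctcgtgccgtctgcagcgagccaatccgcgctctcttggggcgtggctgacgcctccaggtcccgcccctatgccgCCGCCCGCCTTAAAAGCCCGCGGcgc

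Only 27 of these 180 bases were footprinted in both replicates, and of the 2 CRE cores in the peak neither was. All 5 shared distal regions of Rgs2 had its start as the nearest, and the tallest, chr1:144006681-144006880, 2.52 kb upstream, reached 1.03 and 0.972. The other 4 lay 62.3 to 99.7 kb downstream with heights between 0.337 and 1.05. In replicate 2 the one at chr1:143938641-143938940 was taller than the upstream region (1.05 against 0.972).

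Gadd45b (chr10:80930073-80932204, plus strand) had the second tallest promoter, 7.93 and 5.37 (mean 6.65 ± 1.81, SD, n = 2), at percentiles 92.3 and 91.2 of promoter heights. It is shown because it was the only member promoter with the TATA word TATAAA.
Gadd45b promoter: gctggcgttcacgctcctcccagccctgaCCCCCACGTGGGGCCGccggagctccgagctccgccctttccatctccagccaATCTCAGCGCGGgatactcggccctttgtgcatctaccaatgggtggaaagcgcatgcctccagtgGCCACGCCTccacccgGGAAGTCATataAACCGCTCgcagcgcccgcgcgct

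The TATA word began 28 bases before the start and was wholly under a footprint in replicate 1 and partly in replicate 2. A palindromic E-box, CACGTG, 167 bases before the start was wholly covered in both. A separate open region, chr10:80928621-80928820, 1.25 kb upstream, had heights of 4.28 and 2.57, a geometric mean of 3.31 that was above that of every distal region of the 9 genes. Its footprints are of interest because 1 of them, 28 bp wide in replicate 1 and 26 bp in replicate 2, began at the same base in both.
Gadd45b upstream region: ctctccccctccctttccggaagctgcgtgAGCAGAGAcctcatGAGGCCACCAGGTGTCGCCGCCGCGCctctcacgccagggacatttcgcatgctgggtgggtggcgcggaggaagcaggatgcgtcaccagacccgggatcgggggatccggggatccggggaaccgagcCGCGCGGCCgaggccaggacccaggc

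The longest run of capitals contains the core letters of a site of CTCF, a factor that organises chromatin loops (CCANNAGGNGNC, searched on both strands after the sequence was seen, here CCACCAGGTGTC at chr10:80928669-80928680). The same letters occurred in 7.98% of the central 200 bp of all shared regions, and 82.1% of the 3634 copies were touched by footprints in both. Among the 35 distal regions of the members 4 held them, 11.4% against 11.0% over all shared distal regions. These 4 included the only one of Homer1 and the tallest one of Gadd45b, chr10:80995321-80995540, 64.5 kb downstream in an intron of Gng7 (2.49 and 1.15). The distal region nearest to the Gadd45b start itself was chr10:80939761-80940032, 8.95 kb downstream, with 1.82 and 1.32, the taller of the pair in replicate 2. It had a CRE core wholly footprinted in both.

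Rheb (chr5:24802823-24842624, minus strand) had the tallest and widest promoter peak of the group. It reached 8.02 and 6.85 (mean 7.43 ± 0.827, SD, n = 2), at percentiles 92.6 and 96.8, over 460 and 440 bp, with 9 and 10 footprints. It also had the highest ratio of observed to expected CpG among the members (1.04, against a median of 0.748 over all genes with a promoter peak in both). Its sequence is shown for the several separate motifs under footprints.
Rheb promoter: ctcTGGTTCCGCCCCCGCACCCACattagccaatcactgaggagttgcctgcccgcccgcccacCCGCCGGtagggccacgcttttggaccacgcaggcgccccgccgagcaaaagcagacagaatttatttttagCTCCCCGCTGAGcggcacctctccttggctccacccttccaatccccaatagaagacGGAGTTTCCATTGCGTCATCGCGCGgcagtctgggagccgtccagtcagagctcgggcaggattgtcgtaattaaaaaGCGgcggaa

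An EGR site (GCGNGGGCG, on the other strand, 271 bases before the start) and a CRE core 74 bases before it were wholly under footprints in both replicates. A MEF2 site 154 bases before the start was touched by a footprint in each replicate, at different bases. The surroundings were sparse, with 2 shared distal regions, of which the taller was chr5:24860681-24861040, 18.1 kb upstream and nearest to Prkag2 (1.12 and 1.09). The other, chr5:24834561-24834760, lies in an intron of Rheb, 7.67 kb from the start (0.419 and 0.837). The 3 genes whose promoter heights were closest to those of Rheb over the 2 replicates were Aars (8.04 and 6.78, distance 0.0148 in log2 units), Klf7 (distance 0.0196) and Pum3 (distance 0.0238).

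Ptgs2 (chr1:150100031-150108227, plus strand) was at the other end. Its promoter reached 0.945 and 0.655 (mean 0.80 ± 0.205, SD, n = 2), at percentiles 11.0 and 9.45, and its CpG ratio of 0.454 was the lowest of the 9. No shared distal region lay within 100 kb, although replicate 2 alone had 2. The peak was 440 bp wide in replicate 1 and 100 bp in replicate 2. A footprint of 10 bp had identical borders in both replicates (chr1:150100043-150100052), in the first exon. It is shown with 8 bases on each side, because it holds an E-box (CACGTG) overlapping a CRE core on the other strand.
Ptgs2 footprint: tcaccactACGTCACGTGgagtccgc

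Around the 9 genes 76 regions were open in both replicates: 13 promoter regions, 3 between 500 and 2000 bp from the member's own start, 25 close to the start of another gene, and 35 distal ones (over 2000 bp from every annotated start). The median member had 5 distal regions within 100 kb of any of its annotated starts, against 2 over all protein-coding genes (quartiles 1 and 4). At least 1 was found for 8 of 9 members and for 77.8% of all genes. At least 1 with the member's own start as the nearest protein-coding start was found for 7 of 9, and for 39.3% of all genes. The counts were 7 for Arc, 6 for Dusp1, 5 each for Rgs2, Nptx1 and Nptx2, 4 for Gadd45b, 2 for Rheb, 1 for Homer1 and 0 for Ptgs2. In the crowded neighbourhood of Arc 1 of the 7 was nearest to Arc. By contrast, all 10 around Rgs2 and Nptx2 had the start of those genes as the nearest protein-coding one. Of the 35 regions 25 were intergenic, 5 lay in introns and 5 in exons, and 33 held a footprint in both replicates, as did 94.0% of all shared distal regions.

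**Figure D2:**
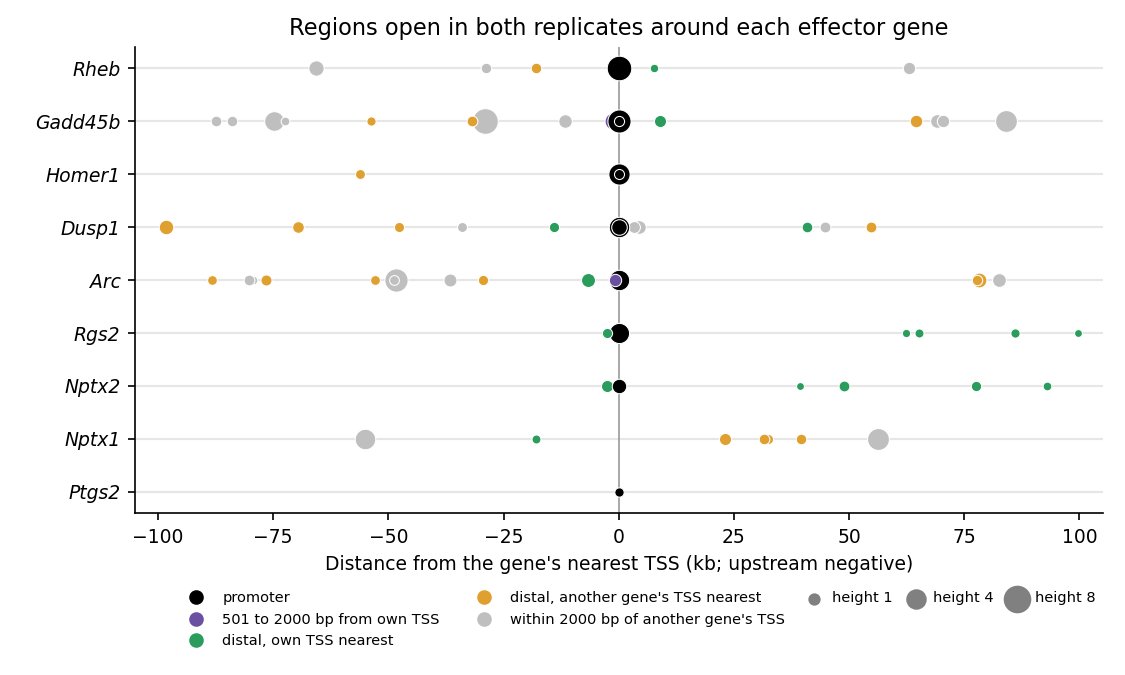
Regions open in both replicates by distance from the nearest start of each effector gene (horizontal axis, kb, upstream negative), one row per gene. Circle area grows with the geometric mean of the 2 heights. Colour gives the class of region, with the nearest start of distal regions counted among protein-coding genes. Rgs2 and Nptx2 have green circles only besides their promoters, Arc and Gadd45b have many grey circles of other genes, Ptgs2 has its promoter alone, and Nptx1 has no black circle because its promoter peak was in replicate 1 alone.

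Heights of the 2 replicates were compared without a test, since there is 1 library each. All 8 promoters were lower in replicate 2, as were 95.1% of all promoters. The median log2 ratio of replicate 2 over replicate 1 was -0.68 for the members (SD 0.246, from -0.92 in Nptx2 to -0.23 in Rheb) and -0.77 for all genes (SD 0.428). Their distal regions fell on both sides: 16 of 35 were higher in replicate 2, against 38.2% of all shared distal regions, and their median log2 ratio was -0.09, against -0.20. The split depends on the scaling. Dividing by each replicate's median peak height moves every log2 ratio up by 0.41. It leaves 7 of 8 member promoters (80.0% of all promoters) lower in replicate 2, with Rheb at 0.18, and puts 23 of 35 distal regions (62.4% of all) higher there, with medians of 0.32 for the members and 0.21 for all. As deposited, the log2 ratios of the Rgs2 distal regions ranged from -0.24 to 1.12, and the 4 distal regions of Gadd45b were all lower in replicate 2.

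**Figure D3:**
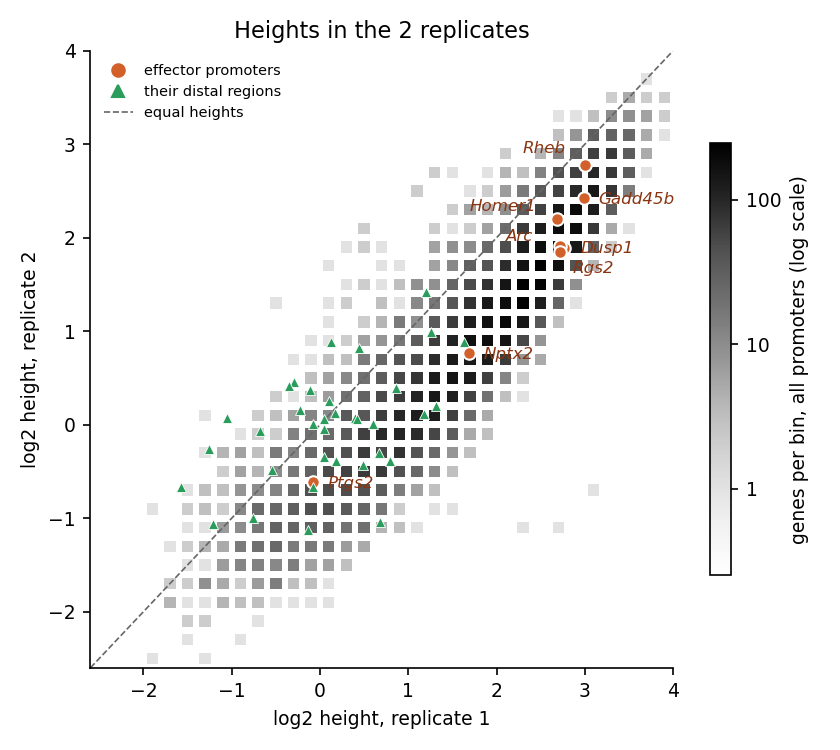
Log2 height in replicate 1 (horizontal) against replicate 2 (vertical) for effector promoters (circles) and their distal regions (triangles), over grey bins of all genes with a promoter peak in both. The 8 circles lie below the dashed line of equal heights inside the grey cloud, and the triangles fall on both sides of it.

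Footprints were found in the tallest promoter peak of all 8 members open in both replicates, as in 97.7% of such genes. In the members' shared promoter regions each replicate had 59 footprints, of which 64.4% (replicate 1) and 66.1% (replicate 2) overlapped one of the other replicate. Over all shared promoter regions the shares were 55.5% and 69.7%. Words for 13 motifs of activity-regulated or general factors were searched on both strands: the CRE (TGACGTCA) and its core TGACG, AP-1 (TGACTCA), EGR (GCGNGGGCG), E-boxes CAGATG and CACGTG, the NPAS4 core TCGTG, C/EBP (TTGCNCAA), the glucocorticoid element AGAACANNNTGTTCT, TATAAA, and the CArG box, MEF2 and NF-kB sites. A core inside a full CRE was counted once, as the CRE. A match is a description of letters and does not show which factor was bound.

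The members' promoter peaks, taken from either replicate, held 43 matches, and 18 were touched by footprints in both replicates. Over all promoter peaks, also taken from either replicate, the share was 19.8% of 26864. All promoter peaks include weaker ones and were not matched to the members by height, so a preference for any motif was not tested. Where the whole motif had to be covered in both replicates, 9 of the 18 remained. CRE cores made up 7 of the 18, out of 14 present, against 21.4% of all cores in promoter peaks. With the full CRE of Dusp1, 6 members had a CRE or its core footprinted in both: Homer1, Nptx1, Nptx2, Dusp1, Rheb and Ptgs2. Nptx1, without a shorter-list peak in replicate 2, and Nptx2 drop out where the whole motif must be covered, which leaves 4. EGR sites gave 4 of 6 (all promoter peaks, 39.2%), in Arc 113 bases before the start, in Rgs2, in Rheb, and in the far upstream peak that Dusp1 shares with Ergic1. The NPAS4 core gave 1 of 11 (9.77%), in Dusp1. AP-1, NF-kB, C/EBP and the CAGATG E-box had 1 match each in the promoters and none footprinted in both, and the glucocorticoid element had no match. In the distal regions 9 of 55 matches were footprinted in both, near the 16.1% over all shared distal regions. They included 3 of 17 CRE cores (14.4% over all) and 1 of 3 CArG boxes (16.1% over all), the one upstream of Arc.

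**Figure D4:**
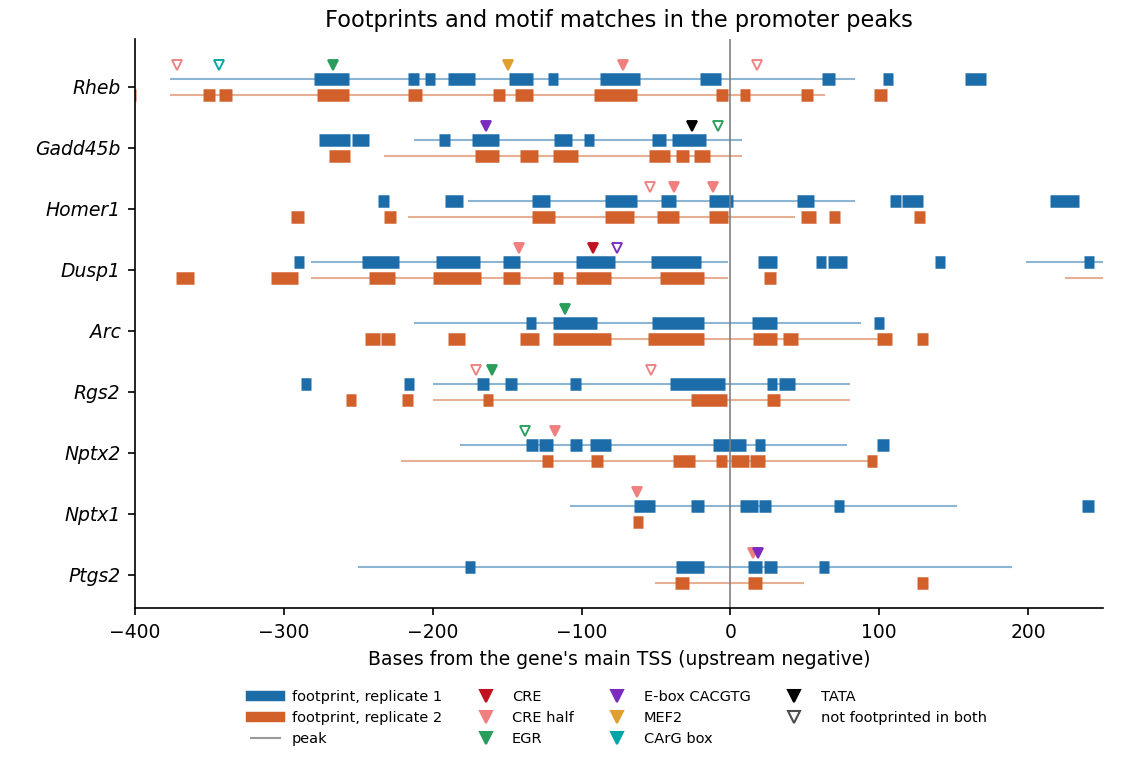
Peaks (thin lines), footprints (thick bars, blue for replicate 1 and orange for replicate 2) and motif matches (triangles, filled where footprinted in both replicates) by distance in bases from the start nearest to the tallest peak of each effector gene. The CRE, its core, EGR, CACGTG, MEF2, CArG and TATA words are drawn, and most filled triangles lie within 200 bases upstream of the start.

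Genes related to the members were read the same way. Of 18 other activity-induced effectors, 16 had a promoter peak in both replicates, with median heights of 5.00 and 2.87. Among them Sik1, a kinase induced by cAMP, reached 8.07 and 3.81, Dusp6 5.81 and 5.02, and Pcsk1, a prohormone convertase, 0.738 and 0.77. Inhba and Adcyap1 had a peak in replicate 1 alone (1.58 and 0.414). All 12 immediate early transcription factors were open in both, with medians of 3.96 and 2.85. Egr1 was tallest (6.32 and 4.56), Fos had 2.69 and 1.82, and Nr4a2 was lowest (1.64 and 0.898). The medians over the 8 members open in both were 6.57 and 3.73.

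Of 12 close relatives, some of which are also among the other effectors, 9 were open in both, with medians of 3.17 and 2.34. Nptxr, the pentraxin receptor, had the pattern of Nptx1, a peak in replicate 1 alone (1.64) with 0.75 in the longer list of replicate 2. Homer2 (0.79 and 0.702) and Homer3 (1.99 and 0.783) were lower than Homer1 in both replicates. Ptgs1, the other cyclooxygenase, had a peak in replicate 2 alone (0.486), as 0.934% of all genes had, while the longer list of replicate 1 gave 0.665. Gadd45a (3.17 and 2.69) and Gadd45g (6.04 and 3.27) were both lower than Gadd45b. Rhebl1 (3.18 and 2.34) was lower than Rheb. Of the Dusp relatives, Dusp2 and Dusp4 were lower than Dusp1 in both replicates. Dusp6 (5.81 and 5.02) was lower than Dusp1 in replicate 1 (6.78) and higher in replicate 2 (3.69).

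Of 24 binding partners and substrates of the members' proteins, 21 were open in both, with medians of 3.57 and 2.05. The tallest by geometric mean was Mapk14, a substrate kinase of Dusp1 (11.0 and 6.99), although it was not the tallest in replicate 2. Mtor, the kinase that Rheb activates, was higher in replicate 2 (4.73 and 4.83). The prostaglandin receptor genes Ptger1 and Ptger2 had no promoter peak in the shorter lists, Ptger3 had one in replicate 1 alone (0.738) and Ptger4 had 2.06 and 1.10. Ptges3, a chaperone partner that also acts as a prostaglandin synthase, reached 7.04 and 3.37.

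**Figure D5:**
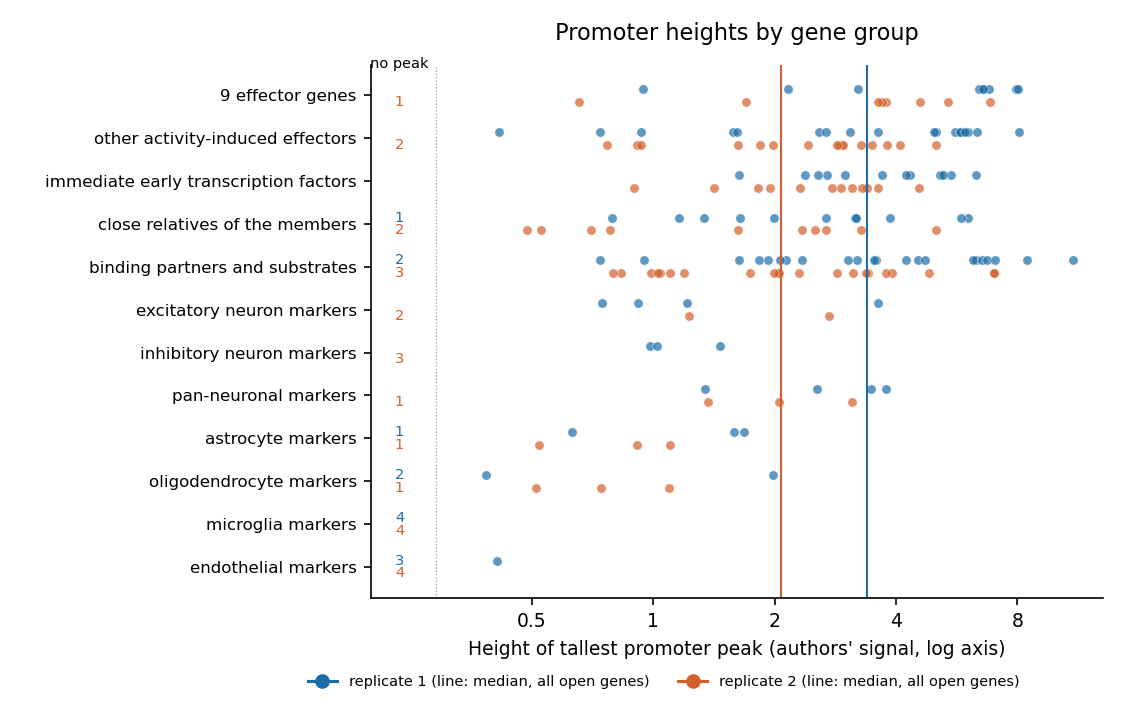
Height of the tallest promoter peak of each gene (horizontal log axis, the authors' signal) by gene group (rows) in replicate 1 (blue) and replicate 2 (orange), with the number of genes without a peak at the left. Vertical lines are the medians over all genes with a promoter peak, and 6 of the effector genes lie to the right of both.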

How the data were processed

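DNase-seq peaks, footprints and FDR tracks of 2 samples were used as the authors deposited them, on mm10 per the labels. Peak heights are a signal value in the deposited peak lists, and neither its scaling nor the peak caller is given in the sources used here. Per the file notes, each list was derived from the alignment of its own replicate. The deposited FDR track gives a q-value (FDR) per stretch and lists stretches under 0.05 only. Deposited footprints carry a constant value of 0.01 and were used for positions.

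The shorter of each replicate's 2 peak lists was used (65017 and 76962 peaks as deposited), and overlapping peaks of a list were joined with the highest height kept. The longer lists (110374 and 128461 peaks) served as an alternative. Which setting separates the lists is not given. A region was called shared if its peaks in replicates 1 and 2 had at least 1 bp in common. Distances of regions were counted from their nearest base to the nearest annotated start of the gene, open or not. Distal means over 2000 bp from every GENCODE M21 start. All peaks lay inside the reference length on 21 of 21 chromosomes of GRCm38.p6, from which sequences were read; RefSeq promoters (GRCm38.p6) gave motif shares. In the RefSeq promoter table used, 6 members were matched (Homer1, Dusp1, Gadd45b, Rgs2, Rheb and Ptgs2), and Arc, Nptx1 and Nptx2 were not matched. The alignment of CAST/EiJ reads is likewise not stated, and their part in the heights was not tested. In all, 2 of the 76 member regions had over 5% of their 25-mers in more than 1 copy.

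Members and gene lists were chosen with earlier results of these data known. Named were all members, and for each the tallest shared distal region and the tallest with its own start as the nearest protein-coding one. For Arc any region 5 to 9 kb upstream was named too. Of the other lists, the highest, the lowest and those open in 1 replicate were candidates for naming; Fos, Dusp6, Mtor, Ptges3, Ptger4 and the members' relatives named beside them were chosen after their values were seen. Values of 2 genes of these lists are not reported here. With 1 group of 2 samples no test was run. Counting and overlap code was tested on simulated peaks. Python 3.11.15, numpy 2.4.6 and matplotlib 3.10.9 were used.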

Additional observations from a re-analysis of the deposited data

How the results depend on the processing

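The number of members with a promoter peak in both replicates was 8, and 7 to 9 under the other settings (longer lists, promoters of 250 or 2000 bp, starts of protein-coding transcripts, peaks above the list's median height). With each replicate left out it was 8 to 9. Footprints in the promoter peak were found for 8 members, and for 8 to 9 under every alternative tried. The 35 shared distal regions became 64 with the longer lists, 18 within 50 kb and 22 with peaks above the median height of each list, and 55 to 68 with each replicate left out, since peaks of 1 replicate then count. The median log2 ratio of promoter heights, -0.68, was -0.27 after division by each replicate's median peak height, and its sign held under all 4 alternatives. Footprinted motif matches in promoters fell from 18 to 9 when the whole motif had to be covered in both replicates, and were 21 to 22 with each replicate left out. The tallest promoter peak was the same one in all 39 settings computed for single genes, so those settings could not move the mean promoter heights. The scaled counts of higher and lower regions and the count of members with a wholly covered CRE or core were added after seeing the data. No paired analysis was possible because the samples form 1 group. Depth is unknown, so weak peaks such as that of Nptx1 in replicate 2 cannot be given a counting limit.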
